A study of Homo sapiens with 6 samples.

Results

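Open chromatin was examined at the 8 genes that encode the main AP-1 transcription factor subunits, FOS, FOSB, FOSL1, FOSL2, JUN, JUNB, JUND and ATF3, in U2OS cells with and without CRAMP1. U2OS is an established human osteosarcoma line, and CRAMP1 is known as a regulator of the linker histone H1 genes. The assay was ATAC-seq, which uses a transposase to tag accessible DNA for sequencing. There were 3 wild-type (WT) libraries and 3 libraries with a CRAMP1 knockout (CRAMP1-KO). The labels name no treatment, and they do not say whether the knockout was 1 clone or whether the replicates were separate cultures, so a p-value here reflects the spread among these libraries and that spread can be technical. Every peak within 20 kb of the hg19 limits of a gene was taken. Overlapping peaks of the 6 libraries were merged, which gave 94 regions at the AP-1 genes out of 248031 in all. FOSL2 had 20 of these regions, ATF3 18, JUNB 13, FOSL1 11, JUND 10, FOS 9, FOSB 8 and JUN 5. Of the 94 regions, 54 (57.4%) had a peak in all 6 libraries, against 37.3% of all regions.

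AP-1 is a dimer of basic leucine zipper proteins. JUN, JUNB and JUND pair with each other or with the Fos proteins (FOS, FOSB, FOSL1, also called FRA-1, and FOSL2, also called FRA-2), and the Fos proteins need a Jun partner to bind the AP-1 site, TGANTCA. Many of these genes are immediate-early genes that serum, growth factors and stress switch on within minutes through MAP kinases. In bone, Fos proteins are known to act in osteoblasts and osteoclasts, and excess Fos causes osteosarcoma in mice. JunD is the more constant member, and ATF3 is a stress-induced relative.

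The promoter sequences show which of these genes carry the letters of an AP-1 or cyclic AMP response element (CRE) type site next to their start. RefSeq promoter windows of 300 bases in build GRCh38.p14 matched 7 of the 8 genes, in 8 windows, with a pair of windows for ATF3 and none for FOSL1. The stretches printed here run from -210 to 19, with the start base as 0, for the genes with TGANTCA, TGACNTCA or, for FOS, TATAAA. These motifs are in capitals. The stretches are JUN at chr1:58784028-58784257 on the minus strand, ATF3 at chr1:212565197-212565426 on the plus strand, JUND at chr19:18281603-18281832 on the minus strand, FOSL2 at chr2:28392648-28392877 on the plus strand and FOS at chr14:75278618-75278847 on the plus strand.

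JUN: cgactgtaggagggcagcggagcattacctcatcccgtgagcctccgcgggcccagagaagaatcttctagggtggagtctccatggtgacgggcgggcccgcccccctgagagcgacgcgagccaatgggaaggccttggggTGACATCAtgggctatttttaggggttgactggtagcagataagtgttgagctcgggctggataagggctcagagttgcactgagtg

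ATF3: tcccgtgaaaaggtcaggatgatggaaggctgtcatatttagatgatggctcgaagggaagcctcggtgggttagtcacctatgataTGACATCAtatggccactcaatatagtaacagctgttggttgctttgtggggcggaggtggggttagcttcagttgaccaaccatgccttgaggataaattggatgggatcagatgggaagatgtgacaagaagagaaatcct

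JUND: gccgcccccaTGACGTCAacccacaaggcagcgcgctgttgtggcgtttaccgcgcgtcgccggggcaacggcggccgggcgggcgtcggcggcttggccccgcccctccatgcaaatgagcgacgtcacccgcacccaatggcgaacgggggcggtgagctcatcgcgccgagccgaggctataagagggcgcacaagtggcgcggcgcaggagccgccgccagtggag

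FOSL2: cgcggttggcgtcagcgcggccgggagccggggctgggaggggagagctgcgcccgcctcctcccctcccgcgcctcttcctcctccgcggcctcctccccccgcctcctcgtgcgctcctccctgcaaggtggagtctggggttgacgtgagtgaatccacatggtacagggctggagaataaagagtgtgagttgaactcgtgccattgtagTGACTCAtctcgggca

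FOS: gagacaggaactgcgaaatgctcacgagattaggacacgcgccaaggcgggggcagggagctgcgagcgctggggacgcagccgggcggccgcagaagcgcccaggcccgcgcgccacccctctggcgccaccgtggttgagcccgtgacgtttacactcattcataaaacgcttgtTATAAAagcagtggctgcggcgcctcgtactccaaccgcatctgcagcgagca

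The 8-base form TGACNTCA, which covers the CRE and the related site of JUN, lay at -67 to -60 in JUN, at -123 to -116 in the first ATF3 window and at -200 to -193 in JUND. The AP-1 site TGANTCA lay at 4 to 10 in FOSL2. TATAAA, the TATA box, lay at -33 to -28 in FOS, at -31 to -26 in JUNB, at -30 to -25 in FOSB and at -230 to -225 in the second ATF3 window. Motifs were searched on both strands in all 300 bases. TGANTCA stood in 7.71%, TGACNTCA in 7.72% and TATAAA in 11.5% of 35116 promoters of the same length. CCAAT stood in JUN, JUNB, JUND and the first ATF3 window, against 34.6% of promoters, and GGGCGG stood in JUN, FOS, FOSB, FOSL2, JUND and the first ATF3 window, against 45.0%. The CArG box, the letters bound by serum response factor, was found in no AP-1 window of these lengths and in 1.29% of all promoters. The sequences come from another build than the peaks, so no motif was placed inside a peak.

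The deposited lists held 132686 to 198875 peaks per library. WT replicate 1 stood apart, with the most peaks and a median deposited fold enrichment of 4.25, against 5.96 to 6.26 in the other 5 libraries. The fold enrichment is the pileup, the number of reads or fragments stacked at the summit, over the local background of the same library. Pileup and background were solved from the deposited fold and -log10 p, and both were divided by a library scale so that the median over shared regions was level. Pileups below are on that scale. Among 11 marker genes, a start peak was present in all 6 libraries at COL1A1, COL1A2, SPARC and VIM, which mark mesenchymal and bone cells, and at the epithelial gene EPCAM. No start peak was found at CDH1, PTPRC, CD3E or ALB, nor at the start used here for the bone regulator RUNX2, and TWIST1 had one in 1 library. Peaks at a start do not check the knockout itself.

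Scaled pileup at the AP-1 genes was lower in CRAMP1-KO mainly at FOSL1 and FOS. By limma with Benjamini-Hochberg adjustment over 92505 shared regions, pileup was lower at 19 of the 54 shared AP-1 regions (35.2%), against 15.5% of all shared regions, and higher at 1 (1.85%), against 9.36%. FOSL1 gave 10 of the 19 lower regions and FOS gave 5, JUNB gave 2 and FOSB and JUND 1 each. The 1 higher region lay at JUN, and FOSL2 and ATF3 had none in either direction. The median log2 difference, CRAMP1-KO minus WT, was -0.18 over the 54 regions and -0.07 over all shared regions. Every CRAMP1-KO library lay below every WT library at 20 of the 54 regions, against 23.7% of all shared regions. None of the 54 had every CRAMP1-KO library above every WT library, against 14.4%. Without WT replicate 1 the counts were again 19 lower and 1 higher.

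The count depended on how the libraries were put on one scale. After cyclic loess, which also levels strong against weak regions, 13 AP-1 regions were lower and 2 higher, against 11.4% and 12.2% of all shared regions. The share of all calls that were higher moved from 37.6% to 51.7% with cyclic loess. Strong regions were lower as a class before that step: among the 9251 shared regions with a mean pileup of at least 246.9, the median log2 difference was -0.17 and 22.3% were lower, and 18 of the 54 AP-1 regions belonged to them. Their median was -0.0045 after cyclic loess. Subtracting the median shift of the surrounding 2 Mb on either side left 5 AP-1 regions lower and 1 higher, against 12.7% and 6.89% of all regions. With both steps, a choice made after seeing the data, 4 were lower and 2 higher, against 9.41% and 8.75%, and 48.2% of all calls were higher. Scaling by a relative depth index gave 0 AP-1 calls and 4 at an unadjusted p under 0.05. That scaling moved the median of all regions up by 0.16 on the log2 scale, called 0.495% of them lower and 3.08% higher, and turned the share of calls that were higher to 86.1%.

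**Figure D1:**
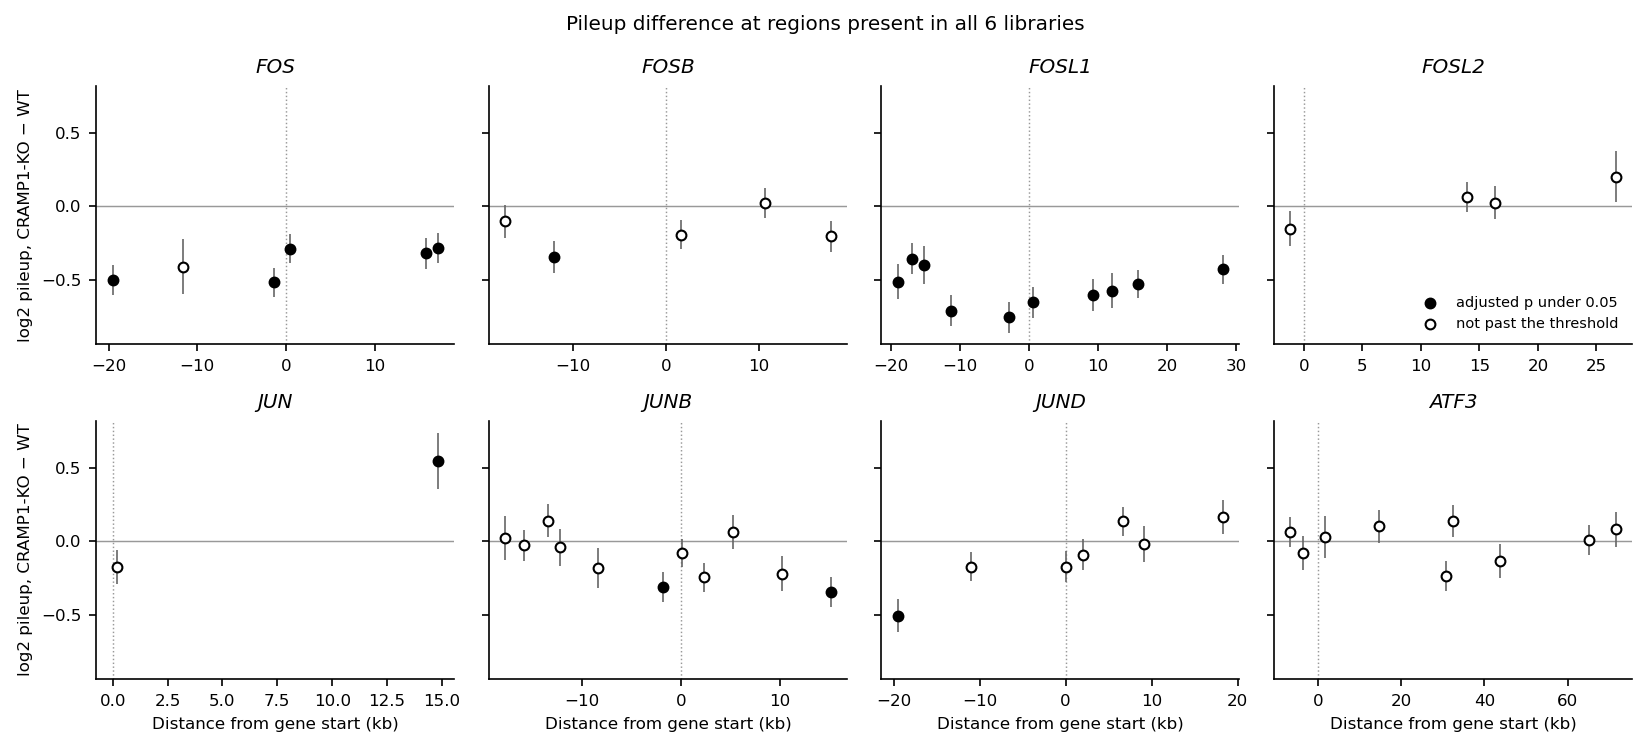
log2 pileup difference between CRAMP1-KO and WT (vertical axis, points with standard error) against distance from the gene start in kb (horizontal axis, a separate scale per gene) for the 54 AP-1 regions with a peak in all 6 libraries. Filled points passed an adjusted p of 0.05: all 10 at FOSL1 and 5 of 6 at FOS lie below 0, and 1 at JUN lies above it.

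FOSL1 encodes FRA-1, the Fos protein that is often high in invasive and mesenchymal tumour cells. Its start region, chr11:65666615-65668226, covered the start and the first part of the gene. The scaled pileup there was 387, 414 and 415 in WT replicates 1 to 3 and 242, 276 and 255 in CRAMP1-KO replicates 1 to 3. All WT libraries lay above all CRAMP1-KO libraries, with no overlap. The mean fell from 405 ± 16.2 to 258 ± 17.3 (SD, n = 3 each), a log2 difference of -0.65 (SE 0.10, limma adjusted p = 1.74e-06). The nearest upstream region, at -3.29 to -2.46 kb, showed a larger difference. Its pileup was 405, 447 and 428 in WT against 275, 251 and 234 in CRAMP1-KO, and the log2 difference was -0.75 (SE 0.10, adjusted p = 8.55e-08).

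The other FOSL1 regions went the same way. Upstream, the region at -11.8 to -10.9 kb differed by -0.71, that at -20.0 to -18.1 kb by -0.51, that at -16.1 to -14.5 kb by -0.40 and that at -17.5 to -16.6 kb by -0.36. Downstream, the regions from 8.31, 11.3, 15.5 and 26.4 kb differed by -0.60, -0.58, -0.53 and -0.43. All 10 differences passed the threshold under median scaling and under cyclic loess. The CRAMP1-KO and WT libraries overlapped at 1 of the 10, the region at -16.1 to -14.5 kb, which had the highest pileup of the gene: 610, 800 and 787 in WT against 545, 627 and 491 in CRAMP1-KO. This region lost its call without WT replicate 2 (-0.33), WT replicate 3 (-0.34), CRAMP1-KO replicate 1 (-0.39) or CRAMP1-KO replicate 3 (-0.31). The region at -17.5 to -16.6 kb lost its call without WT replicate 3 (-0.28) or CRAMP1-KO replicate 1 (-0.28).

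The local background at FOSL1 was lower too. At all 10 regions every CRAMP1-KO library had a lower scaled background than every WT library, against 12.6% of all shared regions, and the median background difference in the window was -0.41. At the start region the background was 55.0, 60.9 and 60.6 in WT against 43.5, 42.6 and 42.9 in CRAMP1-KO. Relative to that background, the deposited fold enrichment at the start changed less than the pileup, from 6.80 ± 0.129 to 5.88 ± 0.444 (SD, n = 3 each), a centred log2 difference of -0.20 that did not pass the threshold (adjusted p = 0.44).

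FOSL1 lay inside a stretch of chromosome 11 in which most regions were lower. Among 376 shared regions within 2 Mb on either side, the gene window left out, 260 (69.1%) were lower in CRAMP1-KO and 1 was higher. Their median log2 difference was -0.47, the FOSL1 window's was -0.55, and the surrounding backgrounds had a median difference of -0.41. With the surrounding shift subtracted, the start region differed by -0.22 (SE 0.10, adjusted p = 0.12) and 2 of the 10 FOSL1 regions remained called lower. These were the region at -3.29 to -2.46 kb, at -0.33 (adjusted p = 0.0212), and the region at -11.8 to -10.9 kb, at -0.28 (adjusted p = 0.0479). A change in DNA copy number and a broad change in accessibility cannot be told apart in these lists.

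**Figure D2:**
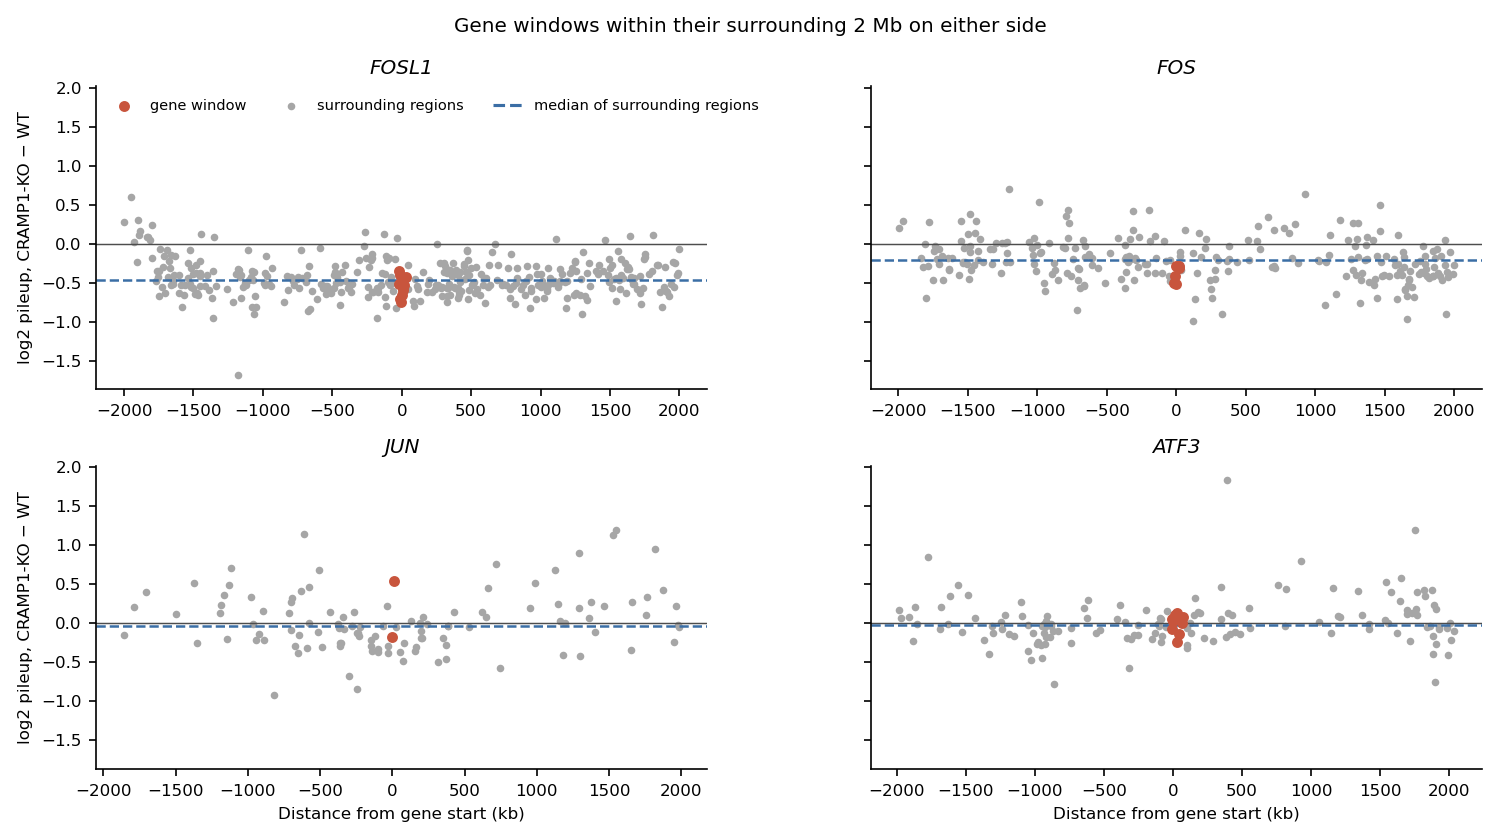
log2 pileup difference between CRAMP1-KO and WT (vertical axis) against distance from the gene start in kb (horizontal axis) for FOSL1, FOS, JUN and ATF3. Grey points are shared regions within 2 Mb on either side, red points those of the gene window, and the dashed line is the median of the grey points: -0.47 at FOSL1, -0.21 at FOS, -0.03 at JUN and -0.02 at ATF3.

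FOS, the founding immediate-early gene of the family, was the other gene with mostly lower regions. At its start region, chr14:75744875-75746995, the scaled pileup was 238, 199 and 198 in WT against 171, 164 and 182 in CRAMP1-KO. The genotypes did not overlap, though the highest CRAMP1-KO library came close to the lowest WT one. The log2 difference of -0.29 (SE 0.10, adjusted p = 0.0253) did not pass without WT replicate 1 (-0.20), CRAMP1-KO replicate 1 (-0.28) or CRAMP1-KO replicate 2 (-0.26), nor after cyclic loess (-0.17) or after the surrounding shift was subtracted (-0.15).

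The called regions upstream of FOS differed more than its start. Another shared upstream region, at -12.3 to -10.8 kb, differed by -0.41 and was not called (limma adjusted p = 0.10). Its difference was -0.28 without CRAMP1-KO replicate 3. Just upstream, chr14:75743641-75744556, at -1.84 to -0.925 kb, had a pileup of 339, 306 and 322 in WT against 229, 219 and 227 in CRAMP1-KO. Farther out, the region at -20.1 to -19.0 kb had 397, 397 and 413 in WT against 264, 301 and 288 in CRAMP1-KO. Both were well separated by genotype. The log2 differences were -0.52 (SE 0.10, adjusted p = 6.31e-05) and -0.50 (SE 0.10, adjusted p = 0.000191), and they passed after cyclic loess (-0.37 and -0.34), after the surrounding shift was subtracted (-0.39 and -0.37) and without each library in turn.

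Downstream of FOS the differences were smaller. The highest FOS region, at 15.0 to 16.6 kb, had a pileup of 402, 400 and 404 in WT against 325, 337 and 306 in CRAMP1-KO, a log2 difference of -0.32 (adjusted p = 0.0191). Its neighbour at 16.8 to 17.6 kb differed by -0.28 (adjusted p = 0.0355). Both calls were lost in some fits that left out 1 library. The first was not called without WT replicate 2 (-0.32), WT replicate 3 (-0.31), CRAMP1-KO replicate 1 (-0.32) or CRAMP1-KO replicate 3 (-0.28). Its difference moved little in these fits. Its neighbour was not called without WT replicate 3 (-0.21), CRAMP1-KO replicate 1 (-0.25), CRAMP1-KO replicate 2 (-0.30) or CRAMP1-KO replicate 3 (-0.30). In the last 2 of these fits the difference was no smaller than with all libraries. Around FOS, 31.5% of 257 shared regions were lower, with a median of -0.21, against a median of -0.36 in the window. Background was lower in every CRAMP1-KO library at 5 of the 6 FOS regions. Such a separation held for 12.6% of all shared regions. The median background difference was -0.29 in the FOS window and -0.17 in its surroundings, so part of this shift was not confined to FOS.

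FOSB, an immediate-early gene best known in neurons, had a weak start region just before its start, chr19:45970602-45971142. A peak was called there in 5 libraries, with a pileup of 70.8, 50.9 and 59.9 in WT against 47.7 and 43.9 in CRAMP1-KO replicates 2 and 3. CRAMP1-KO replicate 1 had no peak there, so the region had no test. A longer region just inside the gene, at 0.352 to 2.87 kb, had a peak in all 6 libraries. Its log2 difference was -0.19 (limma adjusted p = 0.154). Among the 5 shared FOSB regions the log2 difference ran from -0.35 to 0.02. The lowest, at -12.5 to -11.4 kb, had a pileup of 282, 373 and 375 in WT against 274, 288 and 243 in CRAMP1-KO, with 1 CRAMP1-KO library above the lowest WT one. Its difference of -0.35 (SE 0.11, adjusted p = 0.0129) did not pass without WT replicate 2 (-0.28), WT replicate 3 (-0.28) or CRAMP1-KO replicate 3 (-0.28), nor after cyclic loess (-0.19).

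FOSL2, which encodes FRA-2, had the highest start pileup of the 8 genes. Over its start, chr2:28612672-28616528, the pileup was 475, 546 and 577 in WT against 490, 531 and 419 in CRAMP1-KO. The genotypes overlapped, and the log2 difference was -0.15 (SE 0.12, adjusted p = 0.367). The peaks there covered 2835, 2596 and 2408 bases in WT against 3585, 3289 and 3429 in the knockout. The groups did not overlap, but the centred log2 width difference of 0.27 (SE 0.07) did not pass the adjustment (adjusted p = 0.228). In WT this stretch was split into 3 or 4 peaks and in CRAMP1-KO into 1 or 2. Over the whole lists the median peak width was 351, 425 and 378 bases in WT against 463, 430 and 457 in CRAMP1-KO. How many regions elsewhere separated or joined in this way was not counted.

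Inside FOSL2 and beyond its end, a pair of weak regions differed in presence. The inner region, at 6.15 to 6.70 kb, had peaks in the 3 CRAMP1-KO libraries only, with a fold of 1.73, 1.87 and 1.70 and a -log10 q of 2.36, 2.55 and 2.49, all low. The region beyond the end, at 27.6 to 28.1 kb, had peaks in the 3 WT libraries only, with a fold of 2.30, 2.76 and 3.19. The strongest FOSL2 region away from the start, at 15.8 to 16.8 kb, did not differ by more than its error: the log2 difference was 0.02 (SE 0.11), with a pileup of 315, 380 and 406 in WT against 414, 399 and 309 in CRAMP1-KO. With cyclic loess it was called higher (0.19, adjusted p = 0.0459).

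JUN encodes c-Jun, a Jun protein that Fos proteins pair with and whose own promoter is bound by AP-1. Its start region, chr1:59247516-59251622, reached from upstream of the start over the larger part of the gene. The pileup was 423, 487 and 467 in WT against 409, 463 and 352 in CRAMP1-KO, with overlap, and the log2 difference was -0.18 (SE 0.11, adjusted p = 0.26). The local background was higher in every CRAMP1-KO library, at 60.3, 54.9 and 52.4 against 47.2, 47.8 and 47.3 in WT. Such a separation held for 4 of the 54 AP-1 regions, against 11.9% of all shared regions. The deposited fold, which is relative to that background, was 6.68, 8.28 and 6.64 in CRAMP1-KO against 8.85, 10.0 and 9.61 in WT, a centred log2 difference of -0.39 (SE 0.14, adjusted p = 0.0934) that did not pass.

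Beyond the end of JUN stood the 1 AP-1 region called higher in CRAMP1-KO, chr1:59234720-59235196, at 14.6 to 15.1 kb. Its pileup was 47.2, 31.4 and 22.3 in WT against 42.4, 47.7 and 50.8 in CRAMP1-KO. WT replicate 1 was as high as the CRAMP1-KO libraries, so the groups overlapped. The log2 difference was 0.54 (SE 0.19, adjusted p = 0.0307). It was 0.82 without WT replicate 1 (adjusted p = 0.00177) and 0.28 without WT replicate 3 (adjusted p = 0.322), and the call was also lost without WT replicate 2 (0.53), CRAMP1-KO replicate 2 (0.53) or CRAMP1-KO replicate 3 (0.49).

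Upstream of JUN, chr1:59255085-59255305, at -5.52 to -5.30 kb, had a peak in the 3 WT libraries and in no CRAMP1-KO library. The peaks were narrow, at 221, 165 and 192 bases, with a fold of 4.49, 3.30 and 4.46 and a -log10 q of 31.5, 14.5 and 18.7. By -log10 q, each was above every peak of the other genotype-specific AP-1 regions, which reached 8.28 at ATF3. A list without a peak gives no pileup, so how far the CRAMP1-KO signal lay below the calling limit is unknown.

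JUNB, an immediate-early Jun protein that often opposes JUN, had no called difference at its start. At chr19:12902018-12902869 the pileup was 198, 222 and 202 in WT against 206, 192 and 191 in CRAMP1-KO, with overlap and a log2 difference of -0.08 (SE 0.10, adjusted p = 0.579). Of its 11 shared regions, 2 were lower. The upstream one, at -2.81 to -0.874 kb, had a pileup of 298, 352 and 348 in WT against 271, 261 and 269 in CRAMP1-KO (-0.31, adjusted p = 0.0174), and the downstream one, at 14.6 to 15.7 kb, had 199, 188 and 191 against 139, 151 and 165 (-0.35, adjusted p = 0.00695). Neither passed after cyclic loess (-0.16 and -0.24). The upstream call was lost without WT replicate 2 (-0.27), WT replicate 3 (-0.28) or CRAMP1-KO replicate 2 (-0.30), and the downstream call without CRAMP1-KO replicate 1 (-0.28).

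JUND, the most constantly expressed Jun gene, also had none at its start, chr19:18391135-18393793. The pileup was 319, 375 and 378 in WT against 332, 318 and 298 in CRAMP1-KO, with overlap and a log2 difference of -0.18 (SE 0.10, adjusted p = 0.219). Its highest region away from the start, at -12.2 to -9.83 kb, differed by -0.17 (adjusted p = 0.192). A weaker region upstream, chr19:18411712-18412268, at -19.8 to -19.2 kb, was clearly separated. There the pileup was 113, 126 and 123 in WT against 88.4, 76.2 and 90.0 in CRAMP1-KO, with a log2 difference of -0.51 (SE 0.11, adjusted p = 0.000569). The difference passed after cyclic loess (-0.47), after the surrounding shift was subtracted (-0.40), with both steps (-0.37) and without each library in turn. The background there overlapped between genotypes, and the deposited fold was 4.33, 4.13 and 3.95 in WT against 3.05, 2.67 and 3.23 in CRAMP1-KO (-0.46, adjusted p = 0.0691).

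ATF3, the stress-induced member, is known to be transcribed from more than one start, one of them far inside the longest form of the gene. At the first start, a peak within 1 kb was called in WT replicate 1 alone, with a fold of 2.36. The strongest ATF3 region lay inside the gene, chr1:212781329-212783374, at 42.7 to 44.7 kb. Its pileup was 417, 473 and 530 in WT against 455, 468 and 368 in CRAMP1-KO, with overlap and a log2 difference of -0.14 (SE 0.12, adjusted p = 0.405). The 9 shared ATF3 regions ran from -0.24 to 0.14, and the lowest adjusted p was 0.0705. A region beyond the gene's end, at 56.7 to 57.7 kb, had peaks in the 3 CRAMP1-KO libraries only, with a fold of 3.14, 3.81 and 3.19 and a width of 1014, 588 and 560 bases.

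**Figure D3:**
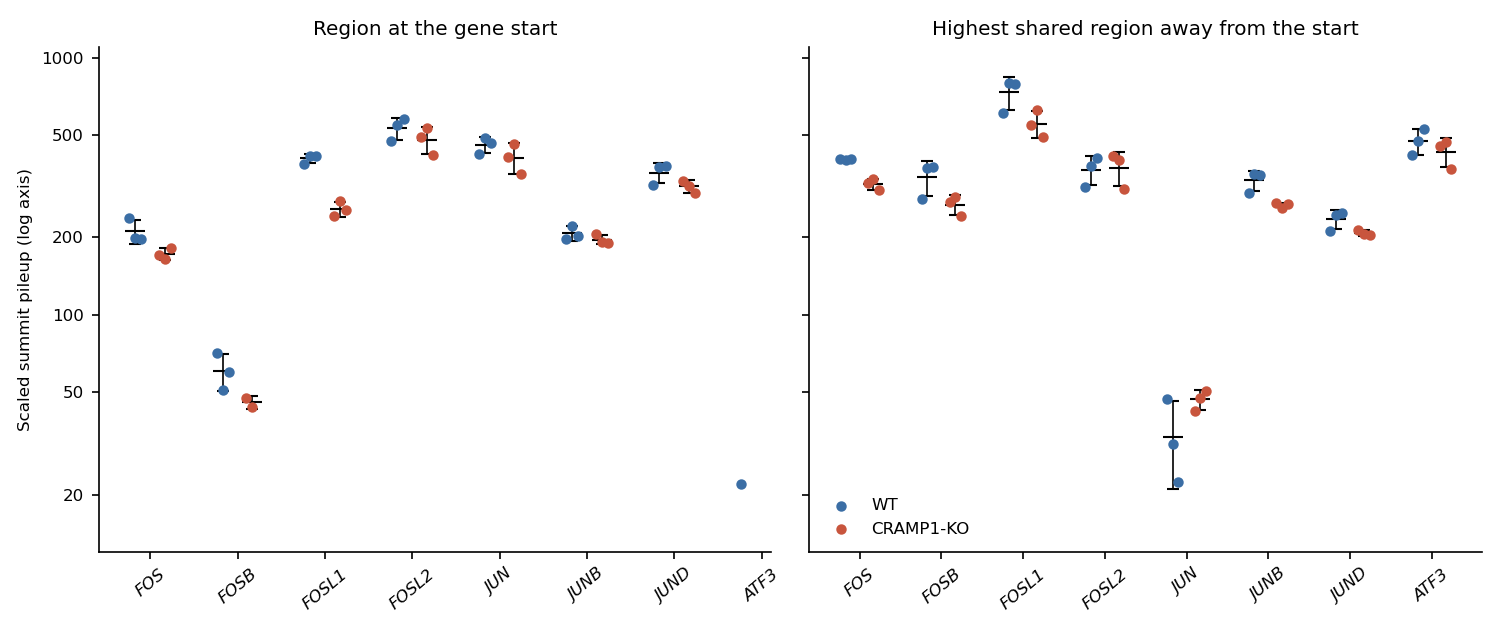
Scaled summit pileup (vertical log axis) of each library at the start region (left) and at the highest shared region away from the start (right) of the 8 AP-1 genes. Points are libraries, WT in blue and CRAMP1-KO in red, with the mean and SD in black, and libraries without a peak are not drawn. FOSL1 at its start separates most, with 387 to 415 in WT and 242 to 276 in CRAMP1-KO.

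At the starts of the 6 genes with a shared start region, the mean pileup over all libraries was highest at FOSL2 (507) and then JUN (434), JUND (337), FOSL1 (332), JUNB (202) and FOS (192). The neighbours JUND and FOSL1 changed order with genotype, since FOSL1 was above JUND in WT (405 ± 16.2 against 357 ± 33.2) and below it in CRAMP1-KO (258 ± 17.3 against 316 ± 17.1; SD, n = 3 each). Within each of the 6 libraries FOSL2 was above JUN and JUN above JUND, though their ranges over libraries overlapped. JUNB and FOS did not keep 1 order, since FOS was above JUNB in WT replicate 1 and below it in the other 5 libraries. In the pattern over the 6 libraries, among 29 start regions compared, FOSL1 was nearest to JDP2 and TIMP1, at distances of 0.38 and 0.42 in log2 units. FOSL2 was nearest to ATF2 and ZFP36 (0.08 and 0.09), JUN to FOSL2 and ZFP36 (0.13 and 0.16), JUNB to MAFF and VIM (0.13 and 0.16) and JUND to SPARC (0.11). The distance is the Euclidean distance of the log2 pileups, each as a deviation from its mean, and it is a description with no test.

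**Figure D4:**
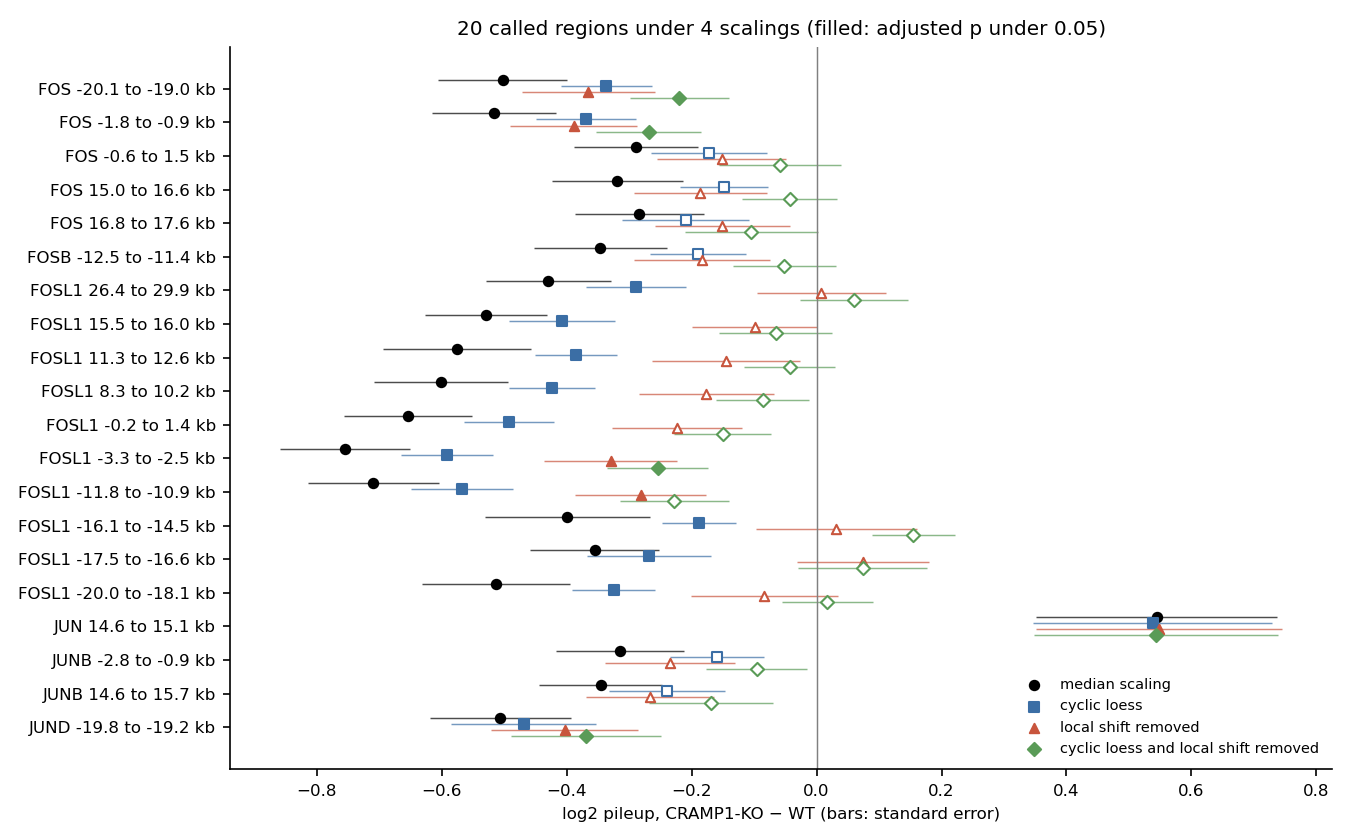
log2 pileup difference between CRAMP1-KO and WT (horizontal axis, bars are standard errors) of the 20 AP-1 regions called with median scaling, under that scaling and 3 others. Filled symbols passed an adjusted p of 0.05: after the surrounding shift was subtracted these were 2 FOS regions, 2 FOSL1 regions and 1 region each of JUND and JUN.

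Presence differed by genotype at few AP-1 regions. A peak in every CRAMP1-KO library but none in WT was found at 2 of the 94 regions (2.13%), against 0.767% of all regions. The reverse pattern was found at 2 (2.13%), against 1.14%. At 12 regions a single library had a peak. Per library, 93, 81 and 77 peaks lay in the AP-1 windows in WT replicates 1 to 3 against 72, 71 and 75 in the knockout. These counts were not adjusted for list length, so they do not by themselves show a loss of peaks at the AP-1 genes. The full lists of WT replicates 1 to 3 had 198875, 151646 and 132686 entries. Those of the knockout replicates had 133756, 139242 and 157997. Set against the length of each list, the AP-1 counts overlapped between genotypes.

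Peak width did not pass the test at any AP-1 region. By limma, 0 of 54 regions were wider and 0 narrower, against 0.0281% and 0.0141% of all shared regions, and 2 were wider and 4 narrower at an unadjusted p under 0.05. The lowest width differences were at FOSL1, -1.23 on the log2 scale at the weak region from -17.5 kb, where the covered bases were 813, 591 and 833 in WT against 189, 256 and 837 in CRAMP1-KO, and -0.42 at the region from -11.8 kb, neither past the threshold. The centred fold gave 0 AP-1 calls as well, against 4.05% higher and 2.94% lower of all regions, with 2 higher and 4 lower at an unadjusted p under 0.05. The lowest adjusted p for fold was 0.0691, at the JUND region from -19.8 kb.

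The share of covered bases in the whole windows also overlapped between genotypes at all 8 genes. Per 1000000 covered bases of a library, the FOSL1 window held 150 ± 20.4 in WT against 144 ± 3.71 in the knockout (SD, n = 3 each), with a two-sided exact permutation p of 0.8. FOSL2 came nearest to a difference, at 91.4 ± 5.81 in WT and 99.2 ± 8.02 in CRAMP1-KO, with an exact p of 0.2. With 3 libraries against 3 such a test cannot go below 0.1. Among 48430 tiles of 50 kb, every CRAMP1-KO library lay below every WT library in 6.89% and above in 13%.

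Other genes of the pathway were taken with the same window rule. At 22 related genes, 21 of 121 shared regions were lower (17.4%) and 3 higher, with a median of -0.14. The lower share stood near that of all shared regions, while the higher share, 2.48%, was below it. Among dimer partners, such as the repressor JDP2 and the BATF and MAF proteins, 7 of 37 were lower and 2 higher. BATF gave 3 of the lower regions and JDP2 2. Both genes lie within 2 Mb of FOS, so their regions are also among those counted around FOS above. Among upstream and co-induced genes, such as SRF and EGR1, 7 of 42 were lower and 0 higher. Among AP-1 targets, such as the matrix metalloproteases and CCND1, 7 of 42 were lower and 1 higher. At the starts, JDP2 differed by -0.38 (adjusted p = 0.00228), CCND1 by -0.42 (adjusted p = 0.00218) and TIMP1, a metalloprotease inhibitor, by -0.35 (adjusted p = 0.00754). With the surrounding shift subtracted, no region of CCND1 or TIMP1 was called lower, and 1 of CCND1 was called higher. In that setting 1 JDP2 region was called lower. The JDP2 start region lies 149 kb from the FOS start on chromosome 14. CCND1 and FOSL1 both lie on chromosome 11, but the CCND1 start region is not among those counted around FOSL1.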

How the data were processed

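ATAC-seq peak lists of 3 WT and 3 CRAMP1-KO U2OS libraries were used, 1 list per library. Per the labels' protocols, 50000 cells were tagmented for 30 minutes and amplified for 7 PCR cycles. Per the submitters' processing notes, the tools were bcl2fastq 2.20.0, cutadapt 3.4, BWA 0.7.17-r1188 and MACS3, with build hg19; the sources used here do not give MACS3 settings, duplicate removal or any read shift. Each deposited peak has a score, a fold enrichment (a ratio) and -log10 p and q per peak. The deposited score was not used. Pileup and background were solved per summit from the deposited fold and -log10 p, and the pileup was whole within 0.01 in 100% of peaks. Read totals are unknown, so no counting interval is given. Peaks overlapping by 1 bp were merged; a region takes the highest summit per library.

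Differences were tested with limma 3.58.1 (R 4.3.3, trend, two-sided) on median-centred log2 values over 92505 shared regions. Adjustment was by Benjamini-Hochberg at 0.05. The fit was also run on simulated pileups with no shift shared by neighbouring regions, so that run cannot vouch for the calls here. Python 3.11.15, numpy 2.4.6, pandas 2.3.3, scipy 1.17.1 and matplotlib 3.10.9 did the rest. Named were all start regions, every called or genotype-specific region and the highest region away from each start. Some FOSB regions are given besides. The members and lists were chosen with earlier results of these data known. Gene limits are those of hg19, with no annotation of that build used. Of the related genes, MAPK14 was left out because its limits differed from RefSeq by over 3 kb. Single values of some related genes are not reported here.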

Additional observations from a re-analysis of the deposited data

How the results depend on the processing

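The lower AP-1 regions numbered 19. This count was 0 with the relative depth index, 5 with the local shift removed, 4 with cyclic loess and local shift removed, 11 without a trend in limma, 8 in windows of 10 kb, 33 in windows of 50 kb, and 13 to 19 when 1 library was left out. The 1 higher region became 2 with cyclic loess, with both steps or in windows of 50 kb, and 0 with the depth index, with a -log10 q of at least 10, without a trend or in windows of 10 kb, and 0 to 1 when 1 library was left out. Fold calls, 0 in both directions, were 0 to 1 lower and 0 to 1 higher when 1 library was left out. The 2 CRAMP1-KO-only regions became 1 with lists of equal length and 0 with a -log10 q of at least 5, and the 2 WT-only regions became 1 with lists of equal length and up to 4 when 1 library was left out. Windows without overlap, 0 in both directions, were 1 lower with lists of equal length or at 50 kb, 1 higher at 10 kb, and 0 to 1 in each direction when 1 library was left out.

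The replicate numbers did not pair the samples: same-numbered libraries deviated together with r = 0.0556, 0.0622 and -0.0903, and not every library correlated best with its own number. With the replicate block, pileup calls were 19 lower and 1 higher, width calls 0, and fold calls 0 lower and 1 higher.

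Of 401 alternative values at the 27 named regions, 290 kept direction and call, 86 lost the call, 1 gained it and 24 changed sign. With the local shift removed the FOSL1 regions at 26.4, -16.1 and -17.5 kb came to 0.0079, 0.032 and 0.074 and the JUNB start to 0.00010. With cyclic loess and local shift removed, these came to 0.060, 0.16, 0.074 and 0.11 and the FOSL1 region at -20.0 kb to 0.017. With both steps the starts of FOSL2, JUN and JUND came to 0.053, 0.0062 and 0.095, the JUND region at -12.2 kb to 0.072 and the ATF3 region at 42.7 kb to 0.0025. With cyclic loess alone the starts of FOSL2, JUN and JUNB came to 0.044, 0.0081 and 0.043 and the ATF3 region to 0.049, and with the depth index the starts of FOSL2 and JUNB came to 0.0080 and 0.079 and the ATF3 region to 0.022. The FOSL2 region at 15.8 kb came to -0.083 without WT replicate 1, and to -0.057 and -0.030 with CRAMP1-KO replicate 1 or 2 left out. The cause was not tested. A list holds no value where no peak was called, which limits tests to shared regions.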
